A study of Rattus norvegicus with 56 samples.

Results

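The miR-130 and miR-301 family consisted of 4 mature microRNAs, miR-130a-3p, miR-130b-3p, miR-301a-3p and miR-301b-3p, among the 682 microRNAs listed for fetal rat heart, amniotic fluid and maternal serum. Its members were found by name in the 5 count tables. The family was selected from the data, because miR-301a-3p was lower in every VSD maternal serum sample than in every negative control (NC) one, so its serum values are a description and carry no test. All 4 members were listed in the 3 tissues. All 4 passed the filter on low counts in myocardium and, over the 3 groups together, in amniotic fluid, and 3 passed in maternal serum, where miR-301b-3p did not.

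Small RNA was sequenced from Sprague-Dawley rats on embryonic day 19, with 56 samples in 8 groups of 7. Dams had received dimethadione (DMO), a compound that causes ventricular septal defect (VSD), by oral gavage, and dams of the NC group had received distilled water in the same way. The VSD group was DMO fetuses with a septal defect and normally connected great vessels, the non-VSD group was DMO fetuses with an intact septum, and fetuses with other visible malformations had been excluded. Myocardium and amniotic fluid had an NC, a non-VSD and a VSD group, and maternal serum, taken from dams, had an NC and a VSD group. Both DMO groups carried the drug exposure. VSD against NC thus holds exposure and defect together, and non-VSD against NC holds exposure with an intact septum. The VSD against non-VSD comparison holds the septum among exposed fetuses. The labels do not give the dam of a sample, so littermates may be among the replicates, and p-values measure the spread between these samples.

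A microRNA guides the silencing machinery to messenger RNAs through its seed, the bases near its 5′ end, so microRNAs with 1 seed share most of their targets. The miR-130 and miR-301 family is expressed in heart, vessels and placenta. miR-130a is known to repress FOG2 (Zfpm2), a transcriptional cofactor needed for septation of the heart, and the family is known to repress PPARG, a nuclear receptor of fat and vessel cells. Each hairpin gives a 3p arm, which carries the family seed, and a 5p arm with another seed.

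The mature sequences, from RefSeq on the GRCr8 build, are shown because they define the family. 3 of the 4 members (all but miR-301a-3p) matched an entry. Capitals mark the seed, bases 2 to 8.
miR-130a-3p: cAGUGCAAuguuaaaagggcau
miR-130b-3p: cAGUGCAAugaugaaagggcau
miR-301b-3p: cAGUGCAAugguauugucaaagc
These 3 were the only entries with this seed among 724 mature rat microRNAs in the table. Outside the seed the members differed: miR-130a-3p and miR-130b-3p were identical at 20 of 22 positions counted from the 5′ end, while miR-301b-3p was identical to miR-130a-3p at 13 of 22 and to miR-130b-3p at 12 of 22. Reads of miR-130a-3p and miR-130b-3p could therefore be told apart by few bases.

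miR-130a-3p lies at chr3:90229240-90229261 on the minus strand, in a hairpin that overlaps no other annotated gene. miR-130b-3p, at chr11:97384430-97384451, and miR-301b-3p, at chr11:97384077-97384099, lie on the plus strand of the same locus, and their hairpins are 269 bases apart inside the protein-coding gene 2610318N02Rikl. The Mir301a hairpin, on chr10:72422599-72422698, plus strand, overlaps the protein-coding genes Ska2 and Prr11. The 5p arms of the hairpins carry other seeds, and those of miR-130b and miR-301a are shown because their counts were compared with the 3p arms.
miR-130b-5p: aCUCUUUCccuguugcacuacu
miR-301a-5p: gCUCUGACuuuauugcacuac
The related miR-148a-3p, miR-148b-3p and miR-152-3p hold most of the same letters 1 base further from the 5′ end, and miR-148b-3p is shown for that shift.
miR-148b-3p: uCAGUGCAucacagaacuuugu

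Myocardium libraries held 1694811 to 9371130 listed counts, amniotic fluid libraries 78188 to 331787 and maternal serum libraries 147609 to 581350. Levels are given as CPM, the count of a microRNA scaled to the listed counts of its sample. A count of 0 allowed a level of up to 1.77 CPM in the smallest myocardium library, 38.4 CPM in the smallest amniotic fluid library and 20.3 CPM in the smallest serum library, and such limits cover counting error only. The labelled heart was checked against 7 heart muscle microRNAs (the miR-1, miR-133, miR-208 and miR-499 genes). None was at 0 in any group, the fluids included, so their presence alone does not tell the tissues apart. Their summed level was between 16393 and 154353 CPM in myocardium, 68.6 and 7143 CPM in amniotic fluid, and 1607 and 16130 CPM in maternal serum.

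In NC myocardium the members followed the order miR-130a-3p, miR-130b-3p, miR-301a-3p and miR-301b-3p, with overlapping ranges between neighbours. miR-130a-3p was between 46.7 and 195 CPM (median 89.4) and miR-130b-3p between 32.1 and 89.9 CPM (median 62.1). miR-301a-3p was between 16.0 and 61.5 CPM (median 45.1) and miR-301b-3p between 11.7 and 49.3 CPM (median 33.0). All 4 were minor species of the heart. The median rank of miR-130a-3p was 189 among the 661 listed microRNAs, and that of miR-301b-3p was 276.

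Amniotic fluid held the same family in a different balance. In NC amniotic fluid, miR-130a-3p was between 2038 and 5055 CPM (median 3087) and miR-130b-3p between 846 and 4804 CPM (median 3124). miR-301a-3p was between 13.4 and 222 CPM (median 85.0), and miR-301b-3p was at 0 in 2 of 7 samples, with a median of 42.3 CPM. The 2 miR-130 members were thus far above the 2 miR-301 members, and the lowest miR-130 value exceeded the highest miR-301 value in this group. In NC maternal serum, miR-130a-3p led with 107 to 284 CPM (median 180). It was followed by miR-130b-3p at 32.6 to 82.6 CPM (median 53.5) and miR-301a-3p at 31.3 to 61.9 CPM (median 49.6), whose ranges overlapped. miR-301b-3p rested on 25 counts over the 7 NC serum samples together.

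**Figure D1:**
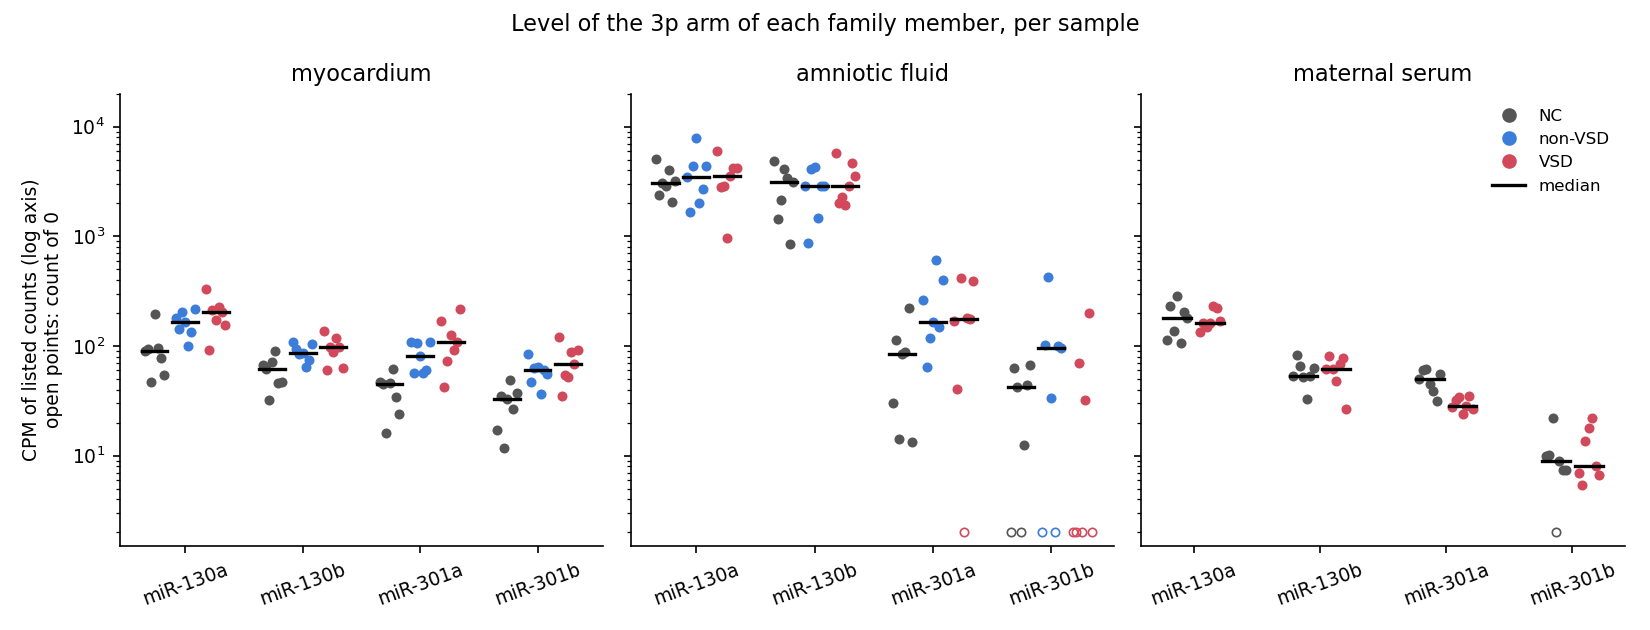
Level of each member in CPM of listed counts (log axis) in every sample, by tissue; colours mark the NC, non-VSD and VSD groups, lines the medians, and open points at the foot of the axis samples with a count of 0. In myocardium both DMO groups sit higher than NC for all 4 members, and in amniotic fluid the miR-130 members sit far above the miR-301 members.

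The make-up of the family set the tissues apart within each sample. miR-301a-3p and miR-301b-3p together held between 22.9% and 37.8% of family counts in NC myocardium (median 33.3%), between 0.305% and 8.44% in NC amniotic fluid (median 1.26%) and between 11.8% and 29.1% in NC maternal serum (median 20.5%). The myocardium and amniotic fluid ranges did not overlap in any group: the DMO hearts were at 29.2% or above, and the DMO amniotic fluids were at 14.7% or below. miR-130b-3p took a median of 45.2% of the family in NC amniotic fluid, 28.9% in NC myocardium and 20.5% in NC maternal serum. Library kit and sequencer differed between amniotic fluid and the other tissues, and myocardium alone came from wax blocks, so that tissue and method cannot be told apart here.

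**Figure D2:**
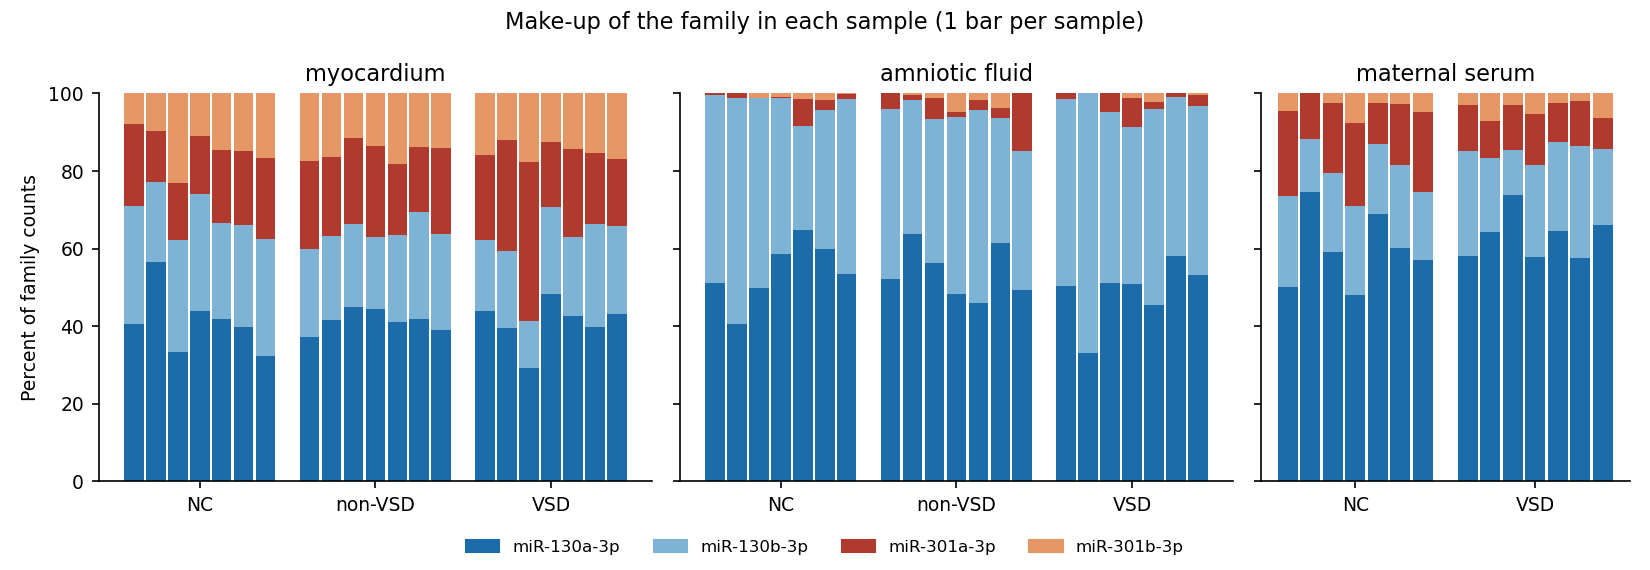
Percent of the summed counts of the 4 members held by each member, 1 bar per sample, by tissue and group. The miR-301 members hold a broad band in every heart and a thin one in amniotic fluid; replicate 3 of the VSD hearts has the widest miR-301a-3p band, at 41.1%.

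The first question was whether the family differed in the hearts of DMO fetuses. All 4 members were higher in the VSD hearts than in the NC hearts, by 1.19-fold to 2.27-fold, and all 4 were higher in the non-VSD hearts, by 1.28-fold to 1.86-fold. miR-301a-3p had the largest difference in both groups and miR-130b-3p the smallest. None of the 8 differences passed an adjusted p under 0.05 by edgeR's quasi-likelihood test, which 0.213% of tested microRNAs passed as higher in VSD and 0.219% in non-VSD, while 3 of 4 members in each comparison had an unadjusted p under 0.05. Of all microRNAs tested, 6.61% were higher at that unadjusted p in VSD (469 tested) and 8.55% in non-VSD (456 tested). A log2 fold change above 0 was seen for 46.7% of all microRNAs in VSD and 43.4% in non-VSD. Both comparisons used the same 7 NC hearts.

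For miR-301a-3p, the NC hearts had a median of 45.1 CPM, the non-VSD hearts lay between 56.5 and 109 CPM (median 80.9) and the VSD hearts between 42.0 and 216 CPM (median 108). As CPM of listed counts, 6 of 7 VSD hearts lay above every NC heart and 6 of 7 above the NC median. After TMM scaling, which takes most microRNAs to be unchanged between samples, 5 of 7 lay above every NC heart and 7 of 7 above the NC median. The log2 fold change was 1.18 in VSD (SE 0.33, edgeR unadjusted p = 0.00244, adjusted p = 0.0716, exact permutation p = 0.00641) and 0.89 in non-VSD (SE 0.26, edgeR unadjusted p = 0.00358, adjusted p = 0.0926, exact permutation p = 0.00874). miR-301a-3p ranked 13 of 469 by log2 fold change in VSD and was the 1 member that met the study's DE-microRNA threshold there (unadjusted p under 0.05 and at least 2-fold), which 2.56% of tested microRNAs met as higher. That call depended on single libraries. Without VSD replicate 3, which had the highest miR-301a-3p level and the smallest library, the log2 fold change was 0.86, and without NC replicate 4 it was 0.98, both under 2-fold.

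For miR-130a-3p, the NC hearts lay between 46.7 and 195 CPM, the non-VSD hearts between 100 and 218 CPM (median 165) and the VSD hearts between 91.7 and 333 CPM (median 204). NC replicate 2 held the value of 195 and overlapped the DMO groups, while the other NC hearts lay below every non-VSD heart. The log2 fold change was 0.73 in VSD (SE 0.24, edgeR adjusted p = 0.101, exact permutation p = 0.00932) and 0.67 in non-VSD (SE 0.22, edgeR adjusted p = 0.126, exact permutation p = 0.0122). Without NC replicate 2, edgeR's adjusted p fell to 0.0318 in VSD and 0.0376 in non-VSD, with log2 fold changes of 0.84 and 0.81. Leaving out this sample also took the count of all microRNAs at an adjusted p under 0.05 from 2 to 77 of 474 in VSD and from 1 to 19 of 455 in non-VSD.

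miR-301b-3p lay between 36.1 and 83.7 CPM in non-VSD hearts (median 60.2) and between 35.0 and 120 CPM in VSD hearts (median 68.6), against a maximum of 49.3 CPM in NC. As CPM of listed counts, 5 of 7 non-VSD and 6 of 7 VSD hearts lay above every NC heart. After TMM scaling the NC maximum was 61.5 CPM, and 2 of 7 non-VSD and 3 of 7 VSD hearts lay above it. Its log2 fold change was 0.81 in VSD (SE 0.32, edgeR adjusted p = 0.169, exact permutation p = 0.0233) and 0.73 in non-VSD (SE 0.31, edgeR adjusted p = 0.219, exact permutation p = 0.0367). miR-130b-3p, its neighbour at the same locus, differed least. It lay between 63.6 and 109 CPM in non-VSD hearts (median 85.9) and between 60.8 and 137 CPM in VSD hearts (median 98.1), with log2 fold changes of 0.36 (SE 0.21, 95% interval -0.08 to 0.81, edgeR adjusted p = 0.424) and 0.25 (SE 0.22, 95% interval -0.23 to 0.73, edgeR adjusted p = 0.537).

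The VSD and non-VSD hearts did not differ detectably in any member. The log2 fold change of VSD against non-VSD was 0.11 for miR-130a-3p (95% interval -0.35 to 0.57), -0.06 for miR-130b-3p (95% interval -0.50 to 0.37), 0.34 for miR-301a-3p (95% interval -0.28 to 0.97) and 0.13 for miR-301b-3p (95% interval -0.49 to 0.75). 0 of 4 members passed an unadjusted p under 0.05 in edgeR, where 8.07% of 483 tested microRNAs were higher and 3.52% lower, and 0 passed an exact permutation test or DESeq2 at an adjusted p under 0.05. The intervals allow a difference of close to 2-fold for miR-301a-3p.

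Marker microRNAs of the heart's cell types were set beside these differences. All 4 red blood cell microRNAs (miR-144 and miR-451 among them) had a log2 fold change below 0 in both DMO groups, 4 of 4 in VSD and 3 of 4 in non-VSD at an unadjusted p under 0.05 (12.6% and 8.99% of all microRNAs were lower at that p), and their summed level was 3266 to 73069 CPM in NC, 3051 to 34882 CPM in non-VSD and 4766 to 24223 CPM in VSD. The pair of endothelial microRNAs summed to 10638 to 16523 CPM in NC, 20135 to 29096 CPM in non-VSD and 16153 to 30570 CPM in VSD. Their median log2 fold change was 0.26 in VSD, with both above 0 and neither at an unadjusted p under 0.05, and 0.37 in non-VSD, with 1 above and 1 below 0 and the first higher at that p. Of the 4 white blood cell microRNAs, 3 were below 0 in each DMO group, 2 in VSD and 1 in non-VSD at an unadjusted p under 0.05 (median -0.98 and -0.64), with sums of 525 to 3013 CPM in NC, 354 to 2087 CPM in non-VSD and 309 to 1100 CPM in VSD. Of the 7 heart muscle microRNAs, 6 were below 0 in VSD, 1 of them at an unadjusted p under 0.05 (median -0.51), and 4 in non-VSD, none at that p (median -0.20). All 8 epithelial microRNAs were above 0 in VSD and below 0 in non-VSD, none at an unadjusted p under 0.05, with sums of 167 to 17532 CPM in NC, 296 to 7238 CPM in non-VSD and 1910 to 21155 CPM in VSD. No marker of these lists was at 0 in a myocardium group. Their part in the family's differences was not tested, and in whole tissue fewer cells of a type and less RNA per cell cannot be told apart. Scaling by library size alone shifted the median log2 fold change of all microRNAs by 0.37 in VSD and 0.20 in non-VSD.

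**Figure D3:**
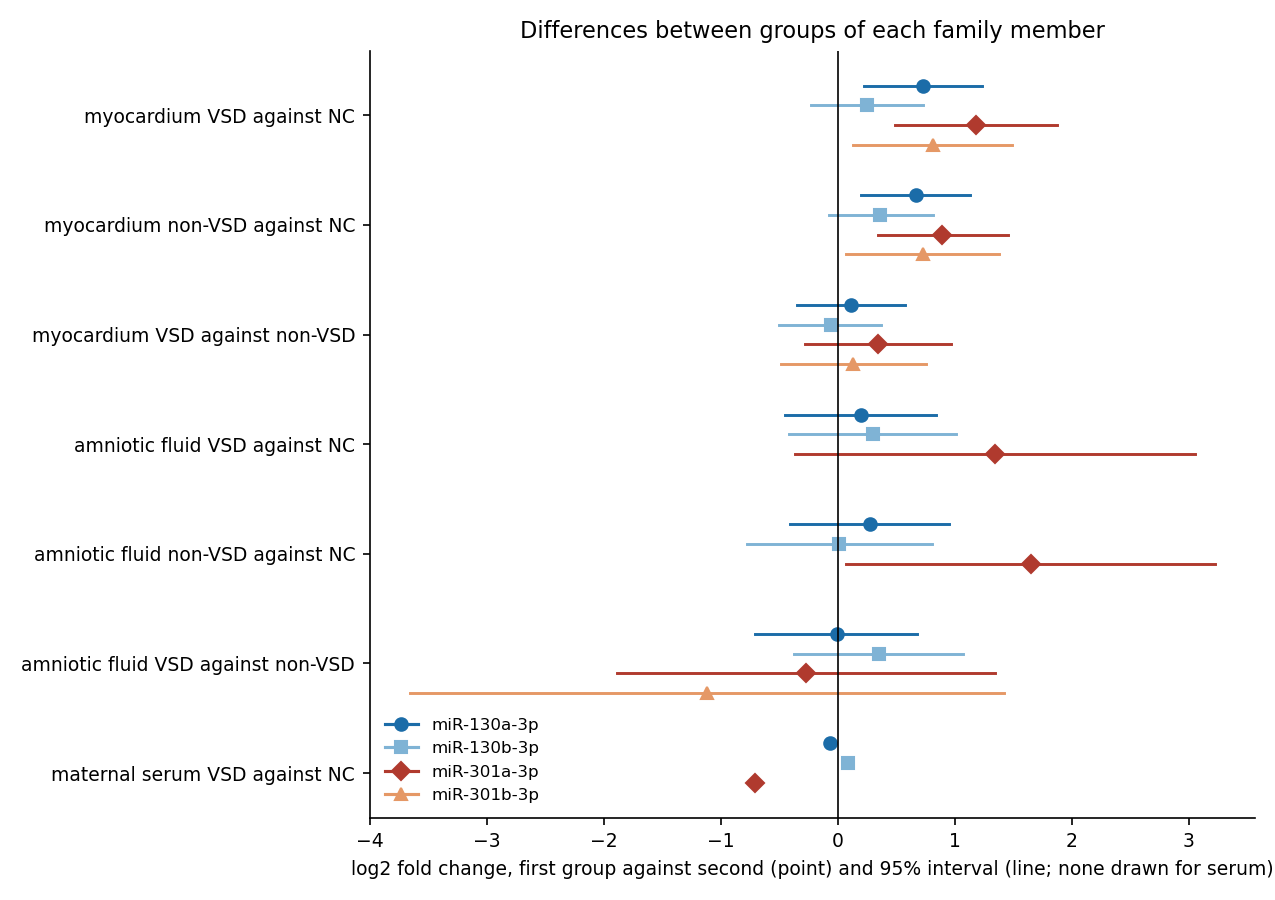
log2 fold change of each member (point) with its 95% interval (line, fetal tissues) in the 7 comparisons, first group against second. In myocardium the points of both comparisons with NC lie to the right of 0, with intervals that cross 0 for miR-130b-3p only. All VSD against non-VSD intervals there cross 0. The maternal serum points, which chose the family, are a description and carry no interval.

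The 2 arms of each hairpin were then compared within each heart, a ratio that does not depend on library scaling. The 3p arm was not the major product of every hairpin. In NC hearts it made up 86.9% to 94.5% of the miR-130a arms and 51.0% to 87.5% of the miR-301b arms, but 17.1% to 34.4% of the miR-130b arms and 18.8% to 48.7% of the miR-301a arms. For these 2 hairpins the 5p arm was the more abundant in every NC heart. In the fluids the balance was the other way: the 3p arm held 82.8% to 96.8% of miR-130b arms in NC amniotic fluid and 63.8% to 84.4% in NC maternal serum. For miR-301a the 3p arm held 68.4% to 100% in NC maternal serum, on 143 counts of the 3p and 23 of the 5p arm. Myocardium and serum were made with the same library kit but by different extraction, so that tissue and extraction cannot be told apart in this difference.

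In VSD hearts the balance of miR-301a lay nearer the 3p arm. The 3p share ranged from 36.4% to 77.1% in VSD (median 54.5%), from 32.0% to 54.7% in non-VSD (median 45.0%) and from 18.8% to 48.7% in NC (median 40.0%). The log2 ratio of 3p to 5p counts was higher by 1.28 in VSD than in NC (exact permutation p = 0.0163). This was the largest difference toward the 3p arm among 147 hairpins with both arms well counted, and ranks here do not count the size of differences toward the 5p arm. miR-301b followed at 1.19 (exact permutation p = 0.0233), ranking 2 of 147, and miR-130b at 0.64 (exact permutation p = 0.0396), ranking 14. miR-130a differed by 0.30 (exact permutation p = 0.312).

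Adjusted over the 147 hairpins, none of the 4 passed, with adjusted p of 0.104 for miR-301a, 0.114 for miR-301b, 0.156 for miR-130b and 0.54 for miR-130a. Of all 147 hairpins, 8.84% had a higher 3p share at an unadjusted exact permutation p under 0.05, 17.7% a lower one, and 0% passed the adjusted p. In non-VSD hearts the differences from NC were 0.29 for miR-130a, 0.34 for miR-130b, 0.63 for miR-301a and 0.37 for miR-301b, with exact permutation p between 0.11 and 0.426. There 10.9% of the 147 hairpins had a higher 3p share at an unadjusted exact permutation p under 0.05, 15.6% a lower one, and 10.2% passed the adjusted p, none of them of the family. In VSD against non-VSD, miR-301b differed by 0.82 (exact permutation p = 0.0169, adjusted p = 0.405) and the others had an exact permutation p of 0.131 or more, beside 4.76% of hairpins with a higher and 6.12% with a lower 3p share at that unadjusted p. The hairpin ratios were compared after their values had been seen.

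Of the 5p arms in VSD hearts, 1 lay above 0 and 3 below 0 after TMM scaling, none at an adjusted p under 0.05. The first, miR-130a-5p, had an edgeR unadjusted p of 0.0326. Of all microRNAs tested there, 46.7% were above 0 and 6.61% were higher at an unadjusted p under 0.05. miR-130a-5p had a log2 fold change of 0.45 (SE 0.19, edgeR adjusted p = 0.208). miR-130b-5p had a value of -0.39 (SE 0.25, edgeR adjusted p = 0.374), miR-301a-5p of -0.22 (SE 0.23, edgeR adjusted p = 0.604) and miR-301b-5p of -0.36 (SE 0.29, edgeR adjusted p = 0.481). As CPM of listed counts the direction of those 3 flipped, with group means in NC and VSD of 163 and 177 CPM for miR-130b-5p, 71.0 and 86.4 CPM for miR-301a-5p, and 8.13 and 8.80 CPM for miR-301b-5p. After TMM scaling the median over the 4 arms was -0.29, beside 0.77 for the 3p arms and -0.05 for all microRNAs tested. In non-VSD hearts all 4 of these arms were above 0, with a median of 0.30, 1 of them at an unadjusted p under 0.05. Of all microRNAs tested there, 43.4% were above 0 and 8.55% were higher at that p. In VSD against non-VSD, miR-301b-5p had a log2 fold change of -0.73 (SE 0.27, edgeR unadjusted p = 0.0144, adjusted p = 0.426), where 3.52% of all microRNAs were lower at an unadjusted p under 0.05.

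**Figure D4:**
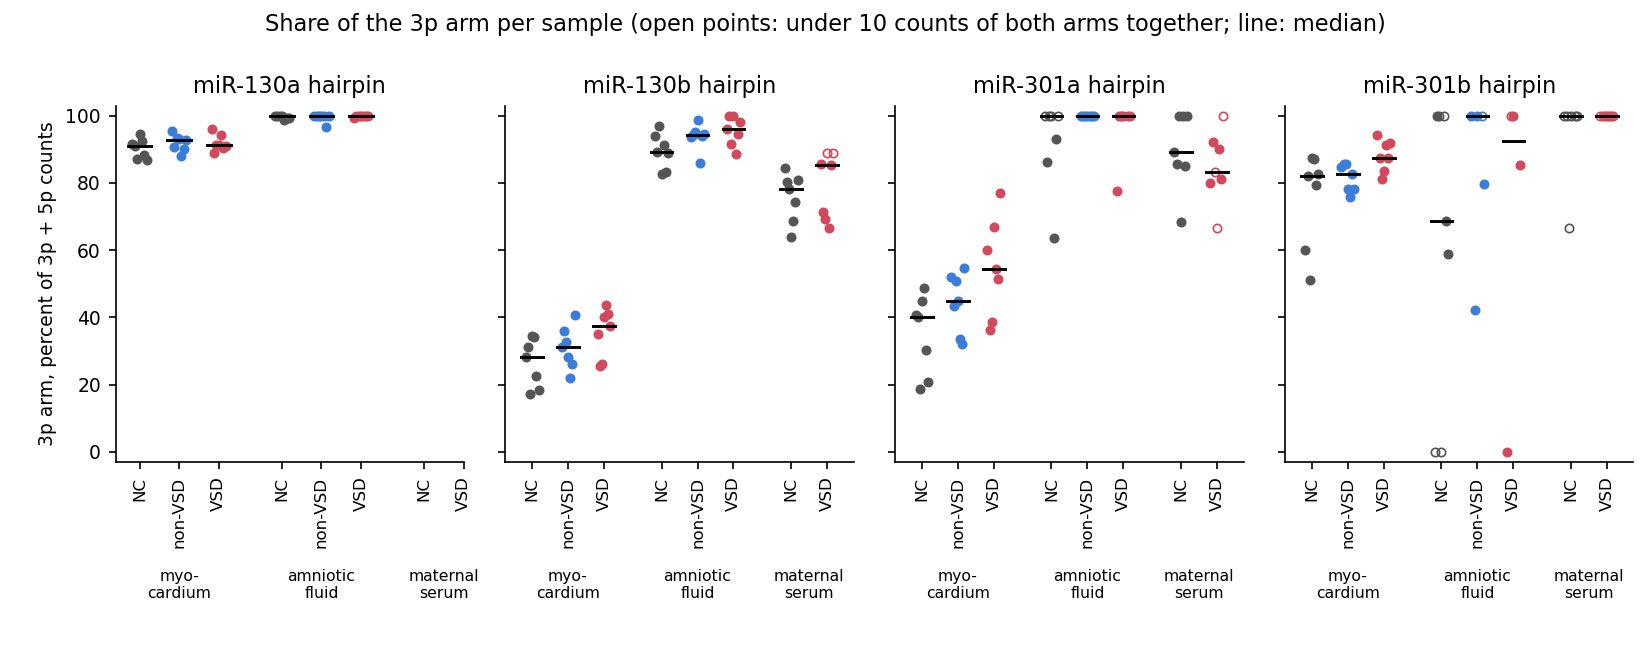
Share of the 3p arm in the counts of both arms of each hairpin, per sample, by tissue and group; open points mark samples with under 10 counts of both arms together, and lines the medians. In myocardium miR-130b and miR-301a lie mostly in the lower part of the axis, in the fluids in the upper part; miR-130a-5p was not listed in maternal serum, so that no share is drawn there.

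Of the 3 microRNAs with the shifted seed, all were below 0 in VSD hearts and 2 in non-VSD hearts after TMM scaling, with 2 and 1 of them at an unadjusted p under 0.05. miR-148b-3p was between 2380 and 5348 CPM in NC hearts (median 3258), between 1930 and 3174 CPM in non-VSD hearts (median 2268) and between 1897 and 2974 CPM in VSD hearts (median 2447), with overlapping ranges. Its log2 fold change was -1.02 in VSD (SE 0.26, edgeR adjusted p = 0.0645) and -0.80 in non-VSD (SE 0.26, edgeR adjusted p = 0.126). miR-148a-3p, one of the most abundant microRNAs of these hearts with a median rank of 4 in NC, had a log2 fold change of -0.56 in VSD (SE 0.24, edgeR adjusted p = 0.211) and of -0.19 in non-VSD (SE 0.22, edgeR adjusted p = 0.727). miR-152-3p had -0.15 in VSD (SE 0.20, edgeR adjusted p = 0.701) and 0.15 in non-VSD (SE 0.20, edgeR adjusted p = 0.772). As CPM of listed counts its mean was 6154 CPM in NC, 8207 CPM in non-VSD and 7383 CPM in VSD, so that its VSD direction flipped with the scaling. Of all tested microRNAs, 12.6% in VSD and 8.99% in non-VSD were lower at an unadjusted p under 0.05.

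Over all 21 hearts the members had positive correlations. Spearman's rho of log2 CPM between 2 members was between 0.577 (miR-130b-3p and miR-301a-3p) and 0.774 (miR-130a-3p and miR-301a-3p). These values hold the difference between DMO and NC hearts, and within the 7 VSD hearts miR-130a-3p and miR-301a-3p gave 0.214 and miR-130b-3p and miR-301a-3p gave 0. miR-130b-3p and miR-301b-3p, which share a locus, gave 0.657, and 4 of the 455 microRNAs outside the family were closer to miR-130b-3p than that. All values share library depth and scaling and are a description.

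Among the 455 microRNAs outside the family, the closest to miR-301a-3p were miR-190a-5p (rho 0.927) and miR-146a-5p (rho 0.804), a microRNA known for feedback on NF-kB signalling. miR-190a-5p followed miR-301a-3p within each group too, with rho of 0.75 in NC, 0.75 in non-VSD and 0.857 in VSD (n = 7 each), whereas miR-146a-5p gave 0.179, 0.857 and 0.357. miR-130a-3p was closest to miR-708-5p (0.87) and miR-195-5p (0.838), which belongs to the miR-15 and miR-16 family. miR-130b-3p was closest to miR-542-5p (0.742) and miR-322-5p (0.699), which come from 1 cluster on chromosome X. miR-301b-3p was closest to miR-181d-5p (0.877) and miR-181b-5p (0.822), which share a seed.

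The second question was whether amniotic fluid differed in the same members. miR-301a-3p was again the member with the largest difference, while both miR-130 members differed little. miR-301a-3p was between 63.9 and 605 CPM in non-VSD amniotic fluid (median 166) and between 0 and 415 CPM in VSD (median 174), against 13.4 to 222 CPM in NC. These levels rested on 101 counts in NC, 258 in non-VSD and 261 in VSD, summed over 7 samples each. Single NC samples had between 2 and 55 counts (median 7), and NC replicate 5 alone held 55 of the 101. The groups overlapped, with 6 of 7 non-VSD and 5 of 7 VSD samples above the NC median.

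The log2 fold change of miR-301a-3p was 1.65 in non-VSD (SE 0.75, edgeR unadjusted p = 0.041, adjusted p = 0.22, exact permutation p = 0.0274), which met the study's threshold, as did 8.68% of 242 tested microRNAs in that direction. It was 1.34 in VSD (SE 0.82, 95% interval -0.37 to 3.05, edgeR adjusted p = 0.479, exact permutation p = 0.259). 0 of 3 tested members had an unadjusted p under 0.05 in VSD, where 5.71% of 245 tested microRNAs were higher and 7.76% lower. Both comparisons share the NC samples. The non-VSD value moved between 1.25 and 2.20 when single samples were left out, and in 8 of those 14 edgeR fits the unadjusted p was 0.05 or more (highest 0.121). The call was also lost with no filter on low counts (edgeR unadjusted p = 0.0508), with all 3 groups in one fit (0.0636) and with a replicate block (0.0805).

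miR-130a-3p in amniotic fluid had a median of 3438 CPM in non-VSD (1650 to 7903) and 3512 CPM in VSD (958 to 6030), close to the 3087 CPM of NC. Its log2 fold change was 0.27 (95% interval -0.41 to 0.95) and 0.20 (95% interval -0.45 to 0.84). miR-130b-3p had a median of 2883 CPM in non-VSD and 2881 CPM in VSD, with log2 fold changes of 0.01 (95% interval -0.78 to 0.80) and 0.30 (95% interval -0.42 to 1.01). The non-VSD value of miR-130b-3p lay on both sides of 0 under other settings. miR-301b-3p was at 0 in 2 of 7 non-VSD and 4 of 7 VSD samples, on 122 and 45 counts in all, and did not pass the filter in the comparisons with NC (exact permutation p = 0.337 in non-VSD and 0.77 in VSD). In VSD against non-VSD its log2 fold change was -1.12 (SE 1.23, 95% interval -3.66 to 1.42), and those of the other 3 members were between -0.27 and 0.35, none at an unadjusted p under 0.05 (5.49% of 273 higher and 5.13% lower).

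In amniotic fluid, all 4 red blood cell microRNAs were above 0 in both DMO groups, 4 of 4 in non-VSD and 2 of 4 in VSD at an unadjusted p under 0.05 (11.2% and 5.71% of all microRNAs were higher at that p), with sums of 15338 to 36170 CPM in NC, 26321 to 85934 CPM in non-VSD and 18210 to 129517 CPM in VSD, and none was at 0. In VSD, 2 of 3 tested white blood cell and 3 of 3 tested heart muscle microRNAs were above 0, and in non-VSD 3 of 3 of each. In both groups 2 of 8 epithelial, 1 of 2 endothelial and 1 of 3 liver microRNAs were above 0. Of all microRNAs, 48.2% were above 0 in VSD and 55.4% in non-VSD. In non-VSD, 1 endothelial and 2 red blood cell microRNAs were higher at an adjusted p under 0.05 by edgeR, as were 3.31% of all. The part of any list in the miR-301a-3p values was not tested. Across the 21 samples, miR-130a-3p and miR-130b-3p varied together (rho 0.792), and none of 233 microRNAs outside the family was closer to miR-130a-3p. The pairs with a miR-301 member had rho between -0.221 and 0.265. The closest to miR-301a-3p was miR-92a-3p (0.699), to miR-130a-3p miR-142-5p (0.715), to miR-130b-3p miR-196c-5p (0.629) and to miR-301b-3p miR-409a-3p (0.626).

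The VSD difference in the heart was set against that in amniotic fluid for the 3 members tested in both, by permuting group labels within each tissue. The heart difference minus the amniotic fluid difference in mean log2 CPM was 0.68 for miR-130a-3p (permutation p = 0.133), -0.08 for miR-130b-3p (permutation p = 0.854) and 0.15 for miR-301a-3p (permutation p = 0.874), in 3 tests. With library size scaling the value of miR-130a-3p was 1.13 (permutation p = 0.0418, not adjusted over the 3 tests). The wide spread of miR-301a-3p in amniotic fluid leaves this comparison little precision.

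In maternal serum, the comparison that chose the family, miR-301a-3p had counts between 13 and 30 in the 7 NC samples and between 4 and 13 in the 7 VSD samples. After TMM scaling it was between 39.5 and 57.8 CPM in NC and between 20.7 and 37.9 CPM in VSD, so that the highest VSD sample lay just under the lowest NC sample. It was the 1 microRNA of 219 tested (0.457%) that lay lower in every VSD sample. As CPM of listed counts, NC lay between 31.3 and 61.9 CPM and VSD between 24.1 and 35.1 CPM, which overlap: 4 of 7 VSD samples lay below every NC sample, and no microRNA of 219 separated the groups in that direction. The separation thus held under 1 of the 2 scalings.

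**Figure D5:**
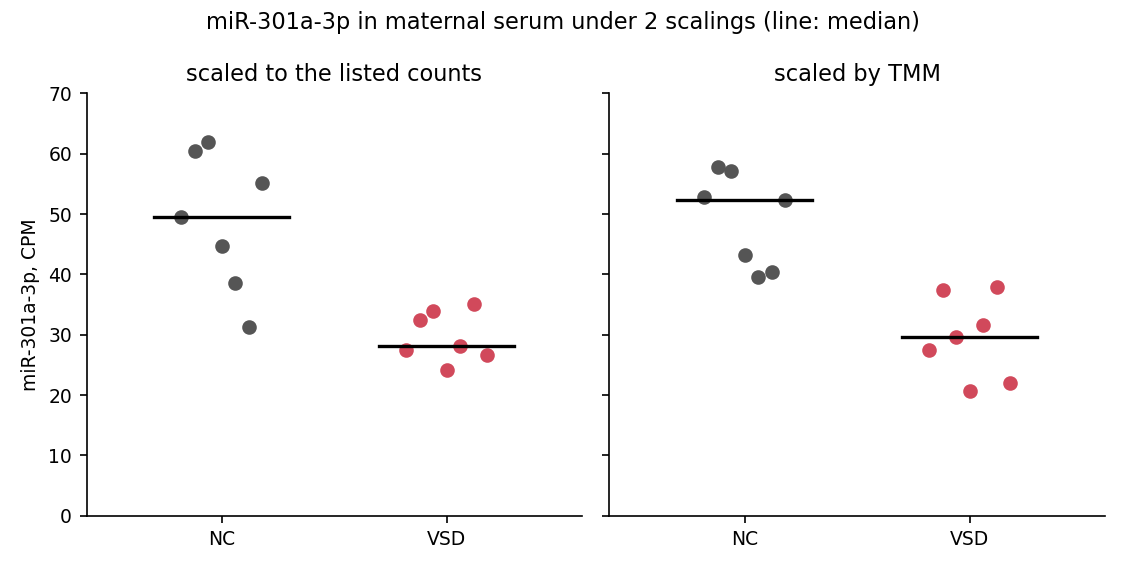
miR-301a-3p in each maternal serum sample, in CPM of listed counts and in TMM-scaled CPM, with the median of each group. The groups do not touch under TMM, with 37.9 CPM as the highest VSD and 39.5 CPM as the lowest NC value, and overlap under listed counts.

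Counting error was wide at this depth. The VSD sample with 4 counts, at 24.1 CPM, had a 95% interval of 6.55 to 61.6 CPM, and the NC sample with 30 counts, at 60.5 CPM, one of 40.8 to 86.3 CPM (exact binomial, counting error only). The VSD serum libraries were also smaller, with a median total of 300005 against 496237 in NC. The log2 fold change of miR-301a-3p was -0.71 (SE 0.25). The other members did not share it: miR-130a-3p had -0.07 (SE 0.27), with 107 to 284 CPM in NC and 134 to 231 CPM in VSD, and miR-130b-3p had 0.09 (SE 0.30), with 32.6 to 82.6 CPM in NC and 26.7 to 80.9 CPM in VSD.

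Within the serum family, the share of miR-301a-3p was 10.6% to 21.9% in NC (median 18.1%) and 8.04% to 13.2% in VSD (median 11.5%). miR-301b-3p rested on 25 counts in NC and 21 in VSD with medians of 8.89 and 8.10 CPM. The white blood cell microRNAs summed to 37909 to 68155 CPM in NC and 58326 to 80536 CPM in VSD, and the red blood cell microRNAs to 65559 to 185556 CPM in NC and 44094 to 134284 CPM in VSD, with none at 0; their part was not tested. The closest to miR-301a-3p over the 14 serum samples was miR-21-5p (rho 0.684, from 209 candidates), with 0.929 within NC and -0.321 within VSD. miR-130a-3p was closest to miR-142-5p (rho 0.89), a microRNA of blood cells, with 0.893 within NC and 0.607 within VSD.

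Set side by side, the VSD difference of miR-301a-3p was thus 1.18 in myocardium, 1.34 in amniotic fluid and -0.71 in maternal serum on the log2 scale, with separate NC groups for each tissue. The serum value was the one that chose the family, and its difference from the fetal tissues was not tested.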

How the data were processed

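Myocardium, amniotic fluid and maternal serum of rats were compared by small RNA sequencing in 56 samples, grouped by their labels. The authors deposited 5 tables with the number of reads counted on each mature microRNA in each sample, without normalization. Base calls were made with bcl2fastq 2.19, and the aligner, microRNA annotation and genome build are not given in the sources used here. Myocardium and serum libraries used the TruSeq kit on a HiSeq system and amniotic fluid libraries the QIAseq kit on a NovaSeq system. 70 further columns of normalized values per sample, 4 of group means and the columns of the authors' own comparisons (fold changes and p-values) were not used.

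Counts were tested in R 4.3.3 with edgeR 4.0.16 (filterByExpr, TMM, quasi-likelihood), 7 against 7 samples, with all 3 groups in the fit for VSD against non-VSD and Benjamini-Hochberg adjustment over every microRNA tested. Log2 CPM used a prior count of 2. Exact permutation tests were two-sided over 3432 groupings, and differences between tissues used 100000 permutations. Arm ratios used an offset of 0.5 and hairpins with a median count of at least 10 for each arm, and were added after the data were seen. The steps were tested on simulated data. The members and lists were chosen with earlier results of these data known; named microRNAs were the members, their 5p arms, the microRNAs with a shifted seed and, per tissue, the 2 closest to each member by Spearman's rho. The alternatives tried were each sample left out in turn, a block for the replicate number, another set of groups in the fit, other filters, library size in place of TMM, limma 3.58.1 on log2(CPM + 1), and DESeq2 1.42.0. Replicates with the same number did not deviate together in all pairs. Plots were made in matplotlib 3.10.9 under Python 3.11.15.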

Additional observations from a re-analysis of the deposited data

Results flagged for a closer look

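In VSD amniotic fluid, replicate 2 had 958 CPM of miR-130a-3p on 78 counts, far below the group median of 3512 CPM. On log2 CPM after TMM scaling, its gap to the next sample was 0.635 of the range of the group, against a limit of 0.568 for 7 samples by Dixon's test. As CPM of listed counts the next sample was at 2817 CPM and the highest at 6030 CPM. These values are not on the log2 scale, so their gap cannot be set beside that ratio. 32 groups of values were examined, and chance flags about 1 in 20 groups, so that 1 flag among them is not unusual. Without this sample the log2 fold change of miR-130a-3p in VSD amniotic fluid was 0.36 in place of 0.20.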

How the results depend on the processing

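In both myocardium comparisons with NC the 4 members were above 0 under each alternative, library size scaling included, which raises the median of all microRNAs. For miR-301a-3p in VSD myocardium the adjusted p fell under 0.05 with DESeq2 (log2 fold change 1.20), library size scaling (1.59), at least 10 counts in every sample (1.30) and all 3 groups in one fit (1.18), and leaving out single samples gave 0.86 to 1.31, with an adjusted p of 0.0344 without VSD replicate 6 and 0.0473 without NC replicate 2. The count of all microRNAs at an adjusted p under 0.05 rose too, from 2 to 46, 38, 15 and 25 in those first 4 settings, and in non-VSD from 1 to 48, 22, 8 and 7. The adjusted p also fell under 0.05 for miR-130a-3p in VSD with DESeq2 (0.74). With single samples left out, miR-130a-3p passed in 1 of 14 fits in each comparison, that without NC replicate 2 (0.84 in VSD, 0.81 in non-VSD). Its other fits gave log2 fold changes down to 0.56 in VSD and 0.57 in non-VSD, with adjusted p of up to 0.269 and 0.238 by edgeR. The adjusted p was also under 0.05 for miR-301b-3p in VSD with library size scaling (1.28). The same held for miR-301a-3p in non-VSD with DESeq2 (0.85) and library size scaling (1.08). Differences near 0 changed sign: miR-130b-3p in non-VSD amniotic fluid with library size scaling (-0.03), all 3 groups (-0.07) and single samples left out (-0.16 to 0.12), miR-130a-3p there with single samples left out (-0.05 to 0.35), miR-130b-3p in VSD against non-VSD myocardium with library size scaling (0.11) and single samples left out (-0.13 to 0.05), and, in VSD against non-VSD amniotic fluid, miR-130a-3p with no filter (0.02) or a replicate block (0.04) and, with single samples left out, miR-130a-3p (-0.20 to 0.31) and miR-301a-3p (-0.59 to 0.13). The heart difference minus that in amniotic fluid became 1.13 for miR-130a-3p (permutation p = 0.0418) and 0.38 for miR-130b-3p with library size scaling, and with single samples left out it was -0.23 to 0.15 for miR-130b-3p and -0.42 to 0.47 for miR-301a-3p. The arm ratio of miR-130a in VSD against non-VSD ranged from -0.16 to 0.14, and that of miR-301a in VSD against NC from 1.04 to 1.47, when single samples were left out (highest exact permutation p 0.0344); in VSD against NC, miR-301b then ranged from 0.90 to 1.35 (highest p 0.0548) and miR-130b from 0.51 to 0.75 (highest p 0.0816), which lost their unadjusted calls in part of these fits. With edgeR, miR-301b-3p lost its unadjusted call in 7 of 14 such fits in VSD myocardium (highest p 0.0907) and 9 of 14 in non-VSD (0.0792), and miR-301a-3p in 8 of 14 in non-VSD amniotic fluid (0.121). The cause of these changes was not tested.

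Same-numbered VSD and NC samples did not deviate together in every pair. Their deviations had r of -0.579 to 0.522 in myocardium, with 2 of 7 pairs over 0.1 there and 5 of 7 in maternal serum. This check cannot settle whether the numbers pair the samples. With the replicate number as a block, the log2 fold change of miR-301a-3p in VSD myocardium was 1.12 (edgeR adjusted p = 0.291), no member's call at an adjusted p changed, and the number of all microRNAs at an adjusted p under 0.05 there went from 2 to 0; the unadjusted p went past 0.05 for miR-301a-3p in non-VSD amniotic fluid (0.041 to 0.0805) and miR-301b-3p in non-VSD myocardium (0.0321 to 0.065). In VSD against NC myocardium, 1 of 7 samples correlated best with its own number. Depth limited miR-301a-3p and miR-301b-3p in both amniotic fluid and serum, where single counts move the level.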
